A study of Homo sapiens with 16 samples.

Results

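The response of HCC4006 cells to gefitinib given alone was taken from the 8 libraries, of 16 in the series, that had received gefitinib or vehicle without any other compound. HCC4006 is an established line of human lung adenocarcinoma whose EGFR gene holds an activating mutation. The 4 gefitinib libraries came from cells kept for 24 hours in 100 nM gefitinib. The 4 vehicle libraries came from cells kept for 24 hours in DMSO, with 0 nM of either compound. The cells of both groups had been plated at 25% confluency, had grown for 24 hours in RPMI-1640 with 10% serum before treatment, and were collected with trypsin. The other 8 libraries had received 100 nM AZ1366, a tankyrase inhibitor, with or without 100 nM gefitinib; they enter the estimate of the spread and a comparison at the end. All libraries come from 1 line, and separate cultures for the 4 libraries of a group are not stated in the labels, so p-values measure only the spread between these libraries, which may be technical.

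EGFR is a receptor tyrosine kinase of epithelial cells. When active it feeds the RAS-RAF-MEK-ERK cascade, PI3K and AKT, and STAT factors, which drive growth, biosynthesis and survival. Gefitinib occupies the ATP site of the kinase and is used against lung adenocarcinomas whose EGFR is mutated, because such cells often depend on the receptor. The genes below are mainly those outside ERK output, the cell cycle and interferon: 3 gene lists for those themes, with 394 tested loci, were set aside, and the functions described come from 40 other lists.

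Levels are in FPKM, which divides the fragments of a locus by transcript length and library size. A change is the gefitinib mean minus the vehicle mean of log2(FPKM + 1), a scale that understates changes of low genes, and it is given ± the standard error of the model. The files give no read counts, so depth is unknown and counting error cannot be set beside a value. Summed FPKM ran between 438139 and 466748 in gefitinib libraries and between 433357 and 453056 in vehicle libraries, and 11628 to 11799 loci reached 1 FPKM in gefitinib libraries, against 11569 to 11644 in vehicle libraries. Among epithelial markers, KRT7, KRT8, KRT18, KRT19, EPCAM and CDH1 were each at 144.1 FPKM or more in the 8 libraries, and NKX2-1, a lung adenocarcinoma factor, lay between 6.85 and 9.02 FPKM in gefitinib libraries and between 5.45 and 7.17 FPKM in vehicle libraries. The alveolar products NAPSA and SFTPB were at 0.466 FPKM or less. The epithelial list summed to 4504 to 4870 FPKM with gefitinib and 5253 to 5989 FPKM with vehicle, without overlap; of its 8 tested members 2 were higher and 3 lower (median -0.11). KRT8, KRT18 and KRT19 were the lower ones, while MUC1, a mucin of glandular epithelium, lay between 95.1 and 136.0 FPKM with gefitinib and between 48.1 and 59.6 FPKM with vehicle. Of the marker lists for other cells, the fibroblast list summed to between 3.77 and 4.03 FPKM with gefitinib and 2.33 to 2.73 FPKM with vehicle, the endothelial list to 2.36 to 2.84 against 0.837 to 1.0 FPKM, and the squamous list to 3.34 to 4.07 against 2.05 to 2.49 FPKM. The leukocyte list reached 51.5 to 56.2 FPKM with gefitinib and 35.1 to 39.0 FPKM with vehicle, almost all of it CD68, a lysosomal protein, while CD3E was at 0 throughout. The neuroendocrine list summed to 0.0758 to 0.150 FPKM with gefitinib and 0.116 to 0.245 FPKM with vehicle, with INSM1 at 0. The part of these markers in the results below was not tested. In such bulk samples, a smaller number of cells of a kind and less RNA per cell cannot be told apart.

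The response was broad, and most of it was small. Of 11647 tested loci, 7521 (64.6%) passed the threshold by limma with Benjamini-Hochberg adjustment over all tested loci. Of all tested loci, 3226 (27.7%) were higher with gefitinib and 4295 (36.9%) lower. The excess of falls was smaller with another scaling: after median-ratio scaling 3855 loci were higher and 3949 lower. The median size of a called change was 0.38 on the log2 scale, and 68.6% of the called changes were smaller than 0.5. Changes of 1 or more numbered 258 rises (2.22%) and 124 falls (1.06%), and 217 and 93 of these lay outside the set-aside lists. The median change over all tested loci was -0.056. Libraries of a group correlated at 0.9938 to 0.9979 across loci, and a gefitinib with a vehicle library at 0.9585 to 0.9727, a description in which libraries share their genes. As a check that the compound acted, DUSP6, an ERK phosphatase gene that is transcribed in response to ERK, had 2.78, 2.95, 2.39 and 2.71 FPKM in gefitinib libraries, against 23.5, 23.6, 23.0 and 23.8 FPKM in vehicle libraries. EGFR itself had 41.7, 41.5, 35.5 and 33.8 FPKM with gefitinib and 84.0, 77.1, 74.8 and 74.7 FPKM with vehicle, a change of -1.01 ± 0.114 (adjusted p = 6.55e-07 by limma). The 4 gefitinib libraries lay below all vehicle libraries for both genes, as they did at 35.7% of all tested loci.

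Long transcripts fell more often than short ones. With the loci cut into 5 equal bins of transcript length, among the shortest, up to 1800 bases, 36.3% were higher and 25.0% lower (median change 0.06), and among the longest, of 5440 bases or more, 20.1% were higher and 43.2% lower (median -0.13). The part of this trend in the results was not tested, so counts after a correction of each library for transcript length and GC content are given beside several lists below.

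**Figure D1:**
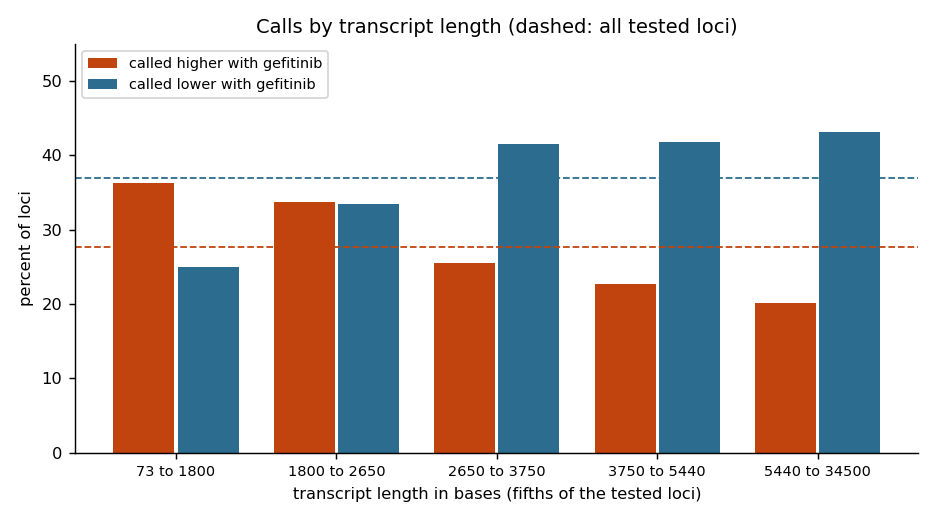
Percent of tested loci called higher (left bar) or lower (right bar) with gefitinib in 5 bins of transcript length in bases; dashed lines mark the shares of all tested loci, 27.7% higher and 36.9% lower. The share higher was 36.3% in the shortest bin and 20.1% in the longest.

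The largest rises included secreted and surface proteins of epithelial cells. VTCN1, which encodes the inhibitory T cell ligand B7-H4 (hg19 chromosome 1, 117686209 to 117753582), had 42.3, 46.1, 44.2 and 38.9 FPKM in gefitinib libraries and 3.69, 3.70, 3.91 and 3.98 FPKM in vehicle libraries. The means differed 11.2-fold, the largest rise outside the set-aside lists, with a log2 change of 3.18 ± 0.060 (limma adjusted p = 1.13e-16). MMP7, the matrilysin protease that cleaves matrix and surface proteins (chromosome 11, 102391239 to 102401478), had 53.5, 51.1, 57.5 and 45.1 FPKM with gefitinib, against 6.50, 7.32, 7.08 and 7.2 FPKM with vehicle, a change of 2.71 ± 0.078. For both genes the lowest gefitinib library stood several times above the highest vehicle library. CCL2, a chemokine for monocytes (chromosome 17, 32582296 to 32584220), had 220.1, 209.0, 227.9 and 237.7 FPKM with gefitinib and 36.9, 45.4, 41.6 and 40.3 FPKM with vehicle (2.42 ± 0.058), the highest level among the 20 largest rises. SPINK1, a secreted trypsin inhibitor, had 60.9 to 75.1 FPKM against 12.2 to 14.1 FPKM with vehicle (2.29 ± 0.079).

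The promoters of VTCN1 and MMP7 are shown because these genes, with the largest rises outside the set-aside lists, both hold an AP-1 motif, the binding sequence of FOS and JUN dimers. Each line gives 250 bases before to 50 after the annotated start, on the gene's strand (RefSeq, GRCh38.p14), with the motif TGANTCA in capitals.
VTCN1, chr1:117210878-117211177, minus strand: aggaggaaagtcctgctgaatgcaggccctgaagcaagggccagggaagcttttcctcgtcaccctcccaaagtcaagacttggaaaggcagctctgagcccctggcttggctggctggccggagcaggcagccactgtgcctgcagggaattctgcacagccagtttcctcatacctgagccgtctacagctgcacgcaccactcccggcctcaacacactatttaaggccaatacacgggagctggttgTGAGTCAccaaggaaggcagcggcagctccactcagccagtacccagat
MMP7, chr11:102530698-102530997, minus strand: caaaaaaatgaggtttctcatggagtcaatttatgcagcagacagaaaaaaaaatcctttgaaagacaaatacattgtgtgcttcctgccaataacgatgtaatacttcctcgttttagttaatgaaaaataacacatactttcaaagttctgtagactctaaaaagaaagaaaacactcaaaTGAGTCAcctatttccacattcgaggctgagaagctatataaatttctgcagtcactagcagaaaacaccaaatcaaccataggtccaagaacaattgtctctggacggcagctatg
The match lies just after the annotated start in VTCN1 and 67 bases before it in MMP7. In the motif shares here and below, the genes that rose or fell by 1 or more include those of the set-aside lists. Across the genes that rose by 1 or more, 24 of the 182 with a promoter in the table (13.2%) held TGANTCA on either strand, against 418 of 8966 tested genes (4.66%) and 7.71% of all 35116 promoters of the table. Median promoter GC was 59.3% in the genes that rose by 1 or more, 65.3% in the tested genes and 58.7% over the table, and its part in these shares was not tested. The FOXO motif TGTTTAC was found in 4.95% of the genes that rose by 1 or more and in 2.21% of the tested genes. The ETS motif CCGGAAG was found in 4.95% of the genes that rose by 1 or more, in 7.95% of those that fell by 1 or more and in 20.4% of the tested genes. In lists with mostly lower members, described below, it was more frequent than in the tested genes for mitochondrial import (44.0%), splicing (39.1%), nuclear transport (34.1%) and tRNA and rRNA modification (26.9%), and less frequent for purine and pyrimidine synthesis (9.09%). A match describes letters in a window and says nothing of binding.

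**Figure D2:**
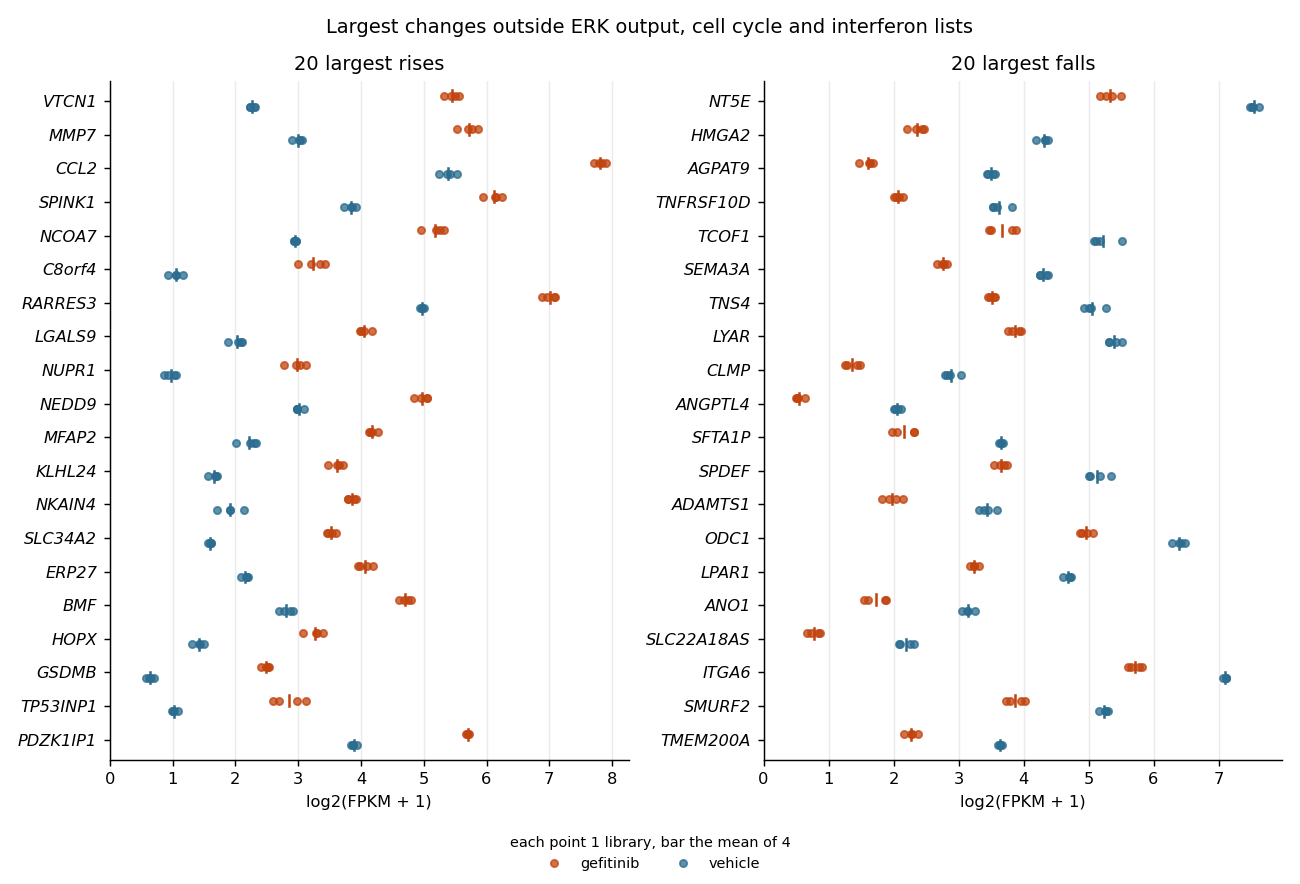
log2(FPKM + 1) of the 20 largest rises (left) and 20 largest falls (right) outside the set-aside lists; each point is 1 library, with gefitinib above vehicle in each gene's row, and bars mark means of 4. In all 40 genes the 4 gefitinib libraries lie on one side of the 4 vehicle libraries, a condition of the choice; VTCN1 rose most (3.18) and NT5E fell most (-2.21).

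Other large rises were in genes of stress, cell death and signalling. BMF, a BH3-only protein that triggers apoptosis, had 25.9, 26.9, 24.6 and 23.4 FPKM with gefitinib and 6.52, 5.83, 5.51 and 6.29 FPKM with vehicle (1.90 ± 0.072). NUPR1, a stress-induced chromatin protein, had 7.73, 6.85, 7.19 and 5.81 FPKM with gefitinib and 1.04, 0.909, 1.07 and 0.820 FPKM with vehicle (2.01 ± 0.088). TP53INP1, which takes part in autophagy and p53 responses, was less even: it had 5.44, 5.08, 7.71 and 6.93 FPKM in gefitinib libraries, against 1.03, 0.976, 1.01 and 1.13 FPKM in vehicle libraries (1.83 ± 0.094). KLHL24, a substrate adaptor of a cullin ubiquitin ligase, had 10.1 to 12.1 FPKM with gefitinib and 1.95 to 2.28 FPKM with vehicle (1.95 ± 0.062). NEDD9, a scaffold of focal adhesions, changed by 1.97 ± 0.073 and GSDMB, of the pore-forming gasdermin family, by 1.84 ± 0.064. NCOA7, a coactivator of nuclear receptors with a role in endolysosomes, had 30.2 to 39.2 FPKM against 6.62 to 6.78 FPKM with vehicle.

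Further genes among the 20 largest rises had a variety of roles. SLC34A2, the phosphate transporter of alveolar type II cells, had 10.6, 10.0, 11.1 and 10.1 FPKM with gefitinib and 2.01, 2.07, 1.95 and 2.04 FPKM with vehicle (1.93 ± 0.053). HOPX, a homeodomain-only cofactor that marks alveolar type I cells, had 7.43, 8.89, 8.78 and 9.5 FPKM with gefitinib, against 1.67, 1.49, 1.70 and 1.82 FPKM with vehicle (1.85 ± 0.081). PDZK1IP1, a small membrane cargo protein, stood at 50.1 to 52.0 FPKM against 13.3 to 14.4 FPKM, and MFAP2, a microfibril protein, at 16.4 to 18.3 FPKM against 3.01 to 4.0 FPKM. ERP27, an endoplasmic reticulum protein, changed by 1.90 ± 0.076, C8orf4 by 2.19 ± 0.082 and NKAIN4 by 1.93 ± 0.075. RARRES3, a retinoid-responsive phospholipase, had 117.7 to 135.4 FPKM with gefitinib and 29.7 to 31.0 FPKM with vehicle. LGALS9, a galectin, had 14.8 to 17.0 FPKM with gefitinib and 2.70 to 3.32 FPKM with vehicle. Both are also known to respond to interferon, although the set-aside list lacks them. Whether others of the largest rises respond to interferon was not tested.

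The largest falls were spread over genes of different functions. NT5E, which encodes CD73, the surface enzyme that makes adenosine from AMP (chromosome 6, 86159302 to 86205509), had 40.1, 44.4, 35.1 and 37.7 FPKM with gefitinib, against 196.7, 182.6, 184.0 and 179.0 FPKM with vehicle, a change of -2.21 ± 0.106 (limma adjusted p = 1.21e-11). ADORA2B, a receptor for adenosine, had 7.63 to 9.23 FPKM with gefitinib and 16.3 to 18.2 FPKM with vehicle (-0.97 ± 0.066). Both genes lay lower in each of the 4 gefitinib libraries than in any vehicle library, as did 35.7% of all tested loci. No list of adenosine genes was made. HMGA2, a chromatin architecture protein of embryonic and tumour cells (chromosome 12, 66151800 to 66360071), had 4.51, 4.39, 3.60 and 4.08 FPKM with gefitinib and 17.3, 19.8, 19.1 and 19.1 FPKM with vehicle (-1.95 ± 0.108). ITGA6, the laminin-binding integrin subunit, had 53.7, 55.4, 49.4 and 47.8 FPKM against 137.3, 132.8, 138.3 and 137.9 FPKM with vehicle (-1.39 ± 0.082). TNS4, an adaptor of integrins and receptors, changed by -1.54 ± 0.082, the adhesion molecule gene CLMP by -1.51 ± 0.110 and the matrix protease gene ADAMTS1 by -1.45 ± 0.099.

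Falls in signalling genes included those for secreted cues and their receptors. SEMA3A, a repulsive guidance cue, had 6.09, 5.74, 5.86 and 5.37 FPKM with gefitinib, against 18.1, 19.3, 19.7 and 18.0 FPKM with vehicle (-1.55 ± 0.070), and its coreceptor gene NRP1 had 45.1 to 52.0 FPKM against 79.3 to 84.9 FPKM (-0.74 ± 0.078). LPAR1, a receptor for lysophosphatidic acid, changed by -1.44 ± 0.081, the calcium-activated chloride channel gene ANO1 by -1.42 ± 0.116 and TNFRSF10D, a decoy receptor for TRAIL, by -1.55 ± 0.091. SMURF2, a ubiquitin ligase of the TGF-beta pathway, changed by -1.37 ± 0.121 and TMEM200A by -1.37 ± 0.078. Of genes for growth and ribosome production, TCOF1, the treacle protein of the nucleolus, had 13.7, 13.2, 10.1 and 10.3 FPKM with gefitinib and 44.5, 35.2, 33.1 and 33.5 FPKM with vehicle (-1.55 ± 0.147), LYAR, a nucleolar zinc finger protein, changed by -1.52 ± 0.094, and ODC1, the first enzyme of polyamine synthesis, by -1.44 ± 0.061. SPDEF, an ETS factor of secretory epithelium, had 10.7 to 12.4 FPKM with gefitinib and 31.1 to 39.5 FPKM with vehicle, and the lung transcript SFTA1P had 2.92 to 4.0 FPKM against 11.3 to 11.8 FPKM. SLC22A18AS fell by 1.42 on the log2 scale; it is antisense to SLC22A18 and the sources used here do not say that strand was kept, so reads of both genes cannot be told apart.

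**Figure D3:**
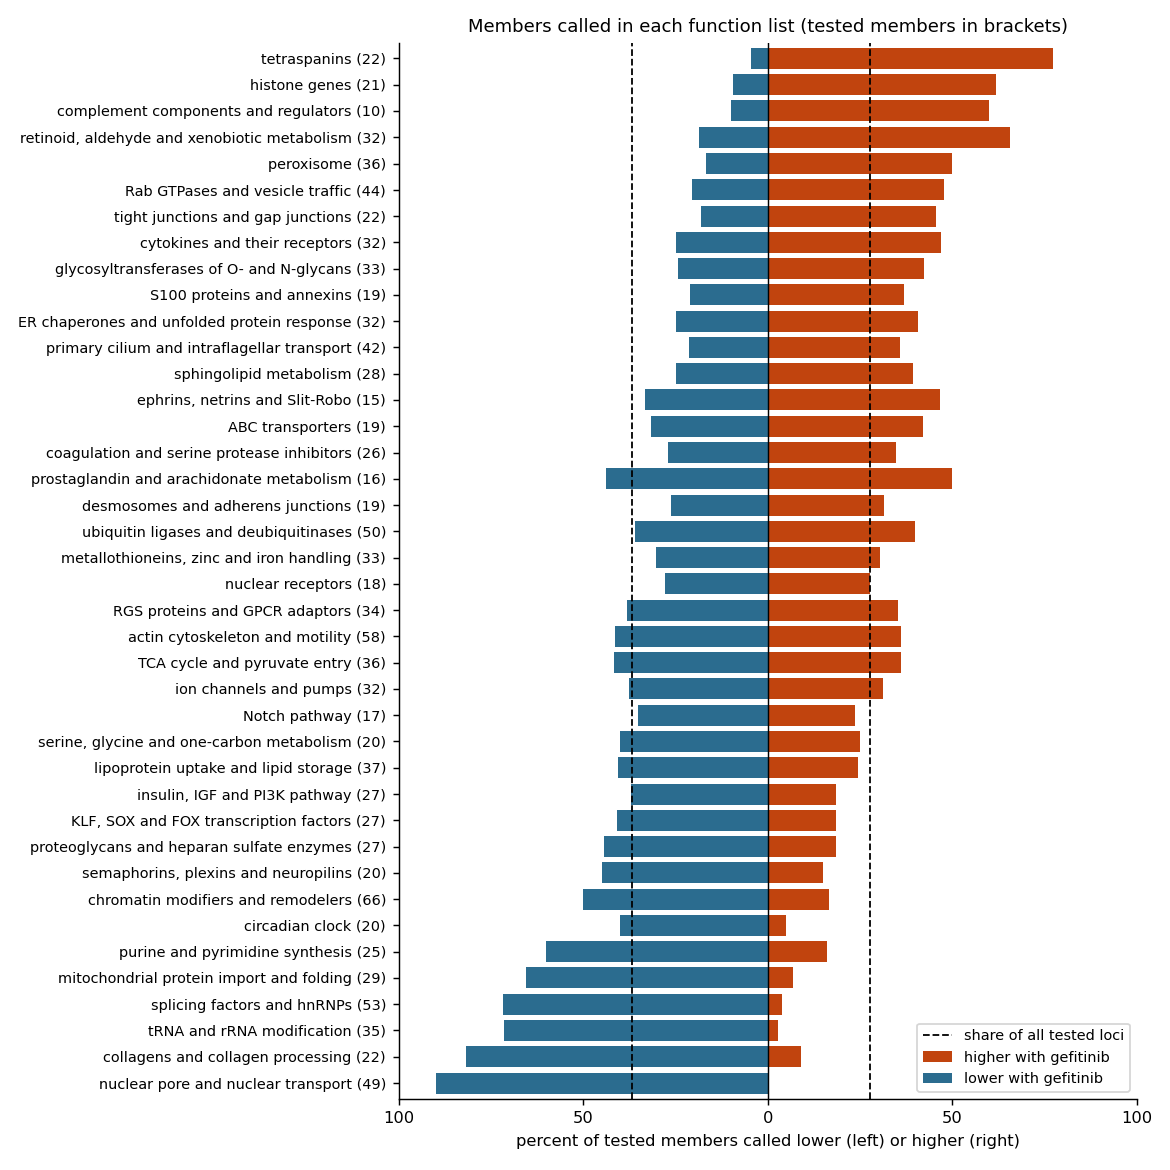
Percent of tested members called lower (bars to the left) or higher (bars to the right) with gefitinib in 40 function lists, with the tested members in brackets; dashed lines mark the shares of all tested loci. In the nuclear transport list 44 of 49 members were lower and 0 higher, while in the tetraspanin list 17 of 22 were higher and 1 lower.

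Several kinds of biosynthetic machinery were mostly lower. Nuclear pore and nuclear transport genes carry proteins and RNA across the nuclear envelope: 44 of 49 tested members were lower and 0 higher, with a median change of -0.37 (all tested loci: 36.9% lower, median -0.056). NUP188, a scaffold nucleoporin, had 12.7, 12.6, 12.2 and 13.2 FPKM with gefitinib, against 23.5, 21.1, 20.9 and 20.9 FPKM with vehicle (-0.72 ± 0.051), and the scaffold genes NUP205 and NUP155 and the importin gene IPO5 changed by -0.66 ± 0.043, -0.59 ± 0.042 and -0.50 ± 0.043. These transcripts are long, with a median of 5233 bases against 3148 bases over all tested loci, and 43 of 49 were lower after the length and GC correction (median -0.32). Of 53 splicing factor and hnRNP genes 38 were lower and 2 higher (median -0.32), among them the tri-snRNP genes PRPF4 (-0.80 ± 0.062) and PRPF3 (-0.69 ± 0.077) and the branch point binding protein gene SF1 (-0.69 ± 0.073). Enzymes that modify tRNA and rRNA were lower in 25 of 35 cases and higher in 1 (median -0.38). The pseudouridine synthase gene PUS1 had 6.12, 6.33, 4.90 and 5.81 FPKM with gefitinib and 14, 11.9, 11.1 and 12.1 FPKM with vehicle (-0.97 ± 0.088), PUS7 changed by -0.87 ± 0.079 and the m7G methyltransferase subunit gene WDR4 by -0.88 ± 0.082.

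Mitochondrial protein import and folding genes were lower in 19 of 29 cases and higher in 2 (median -0.40). TOMM40, the channel of the outer membrane, had 40.1, 40.4, 34.7 and 39.3 FPKM with gefitinib, against 81.1, 77.8, 79.6 and 73.8 FPKM with vehicle (-1.0 ± 0.064). The chaperone genes DNAJA3, TRAP1 and HSPD1 changed by -0.79 ± 0.077, -0.68 ± 0.058 and -0.43 ± 0.047. The 2 members that were higher, TOMM7 (0.44) and TIMM8B (0.25), are small import subunits and were named after their values were seen; TIMM8B was not called after the length and GC correction (0.11), without vehicle replicate 1 (0.16) or without gefitinib replicate 4 (0.19). Purine and pyrimidine synthesis genes were lower in 15 of 25 cases and higher in 4 (median -0.28). PPAT, the committed step of purine synthesis (chromosome 4, 57259529 to 57301802), had 8.83, 9.25, 8.75 and 8.15 FPKM with gefitinib and 17.5, 18.4, 19.1 and 17.5 FPKM with vehicle (-0.97 ± 0.064). Later enzymes of that path changed by a similar size, PFAS by -0.95 ± 0.072 and PAICS by -0.89 ± 0.058, as did the CTP synthase gene CTPS (-0.86 ± 0.066). In each of these 4 genes the gefitinib libraries lay below all vehicle libraries, as they did at 35.7% of all tested loci.

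The promoters of PPAT and NUP188 are shown because both genes belong to lists that fell and hold an E-box, CACGTG, the motif bound by MYC with MAX and by related factors; the motif is in capitals, and the windows are as above (RefSeq, GRCh38.p14).
PPAT, chr4:56435566-56435865, minus strand: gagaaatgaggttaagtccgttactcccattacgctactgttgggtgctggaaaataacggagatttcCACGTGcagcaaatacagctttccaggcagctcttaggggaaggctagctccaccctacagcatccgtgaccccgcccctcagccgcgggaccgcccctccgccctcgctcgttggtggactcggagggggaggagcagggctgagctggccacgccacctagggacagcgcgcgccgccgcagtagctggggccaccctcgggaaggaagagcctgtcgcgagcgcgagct
NUP188, chr9:128947449-128947748, plus strand: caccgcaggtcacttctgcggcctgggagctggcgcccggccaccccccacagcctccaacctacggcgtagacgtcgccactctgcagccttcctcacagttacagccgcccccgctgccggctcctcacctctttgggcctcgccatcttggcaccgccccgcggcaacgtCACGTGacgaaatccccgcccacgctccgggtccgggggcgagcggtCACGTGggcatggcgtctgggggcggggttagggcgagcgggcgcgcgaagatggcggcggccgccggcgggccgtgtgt
PPAT held 1 match, 182 bases before the start, and NUP188 held 2, the first 77 bases before it. PFAS, PAICS, CTPS, NUP205, NUP155 and IPO5, named above from the same lists, held no E-box in this window. Of the genes that fell by 1 or more, 19 of the 88 with a promoter in the table (21.6%) held the E-box, against 928 of 8966 tested genes (10.4%), 12 of 182 genes that rose by 1 or more (6.59%) and 7.26% of all promoters of the table. By list, the E-box was in 6 of 25 promoters of mitochondrial import genes (24.0%) and in 7 of 44 of nuclear transport genes (15.9%). It was in 4 of 26 for tRNA and rRNA modification (15.4%), 3 of 22 for purines and pyrimidines (13.6%) and 4 of 46 for splicing (8.70%). In 2 lists with mostly higher members, described below, it was in 2 of 18 for tetraspanins (11.1%) and 2 of 25 for retinoid, aldehyde and xenobiotic metabolism (8.0%). Median promoter GC was 64.5% in the genes that fell by 1 or more. The AP-1 motif was in 8 of the 88 promoters of these genes (9.09%).

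**Figure D4:**
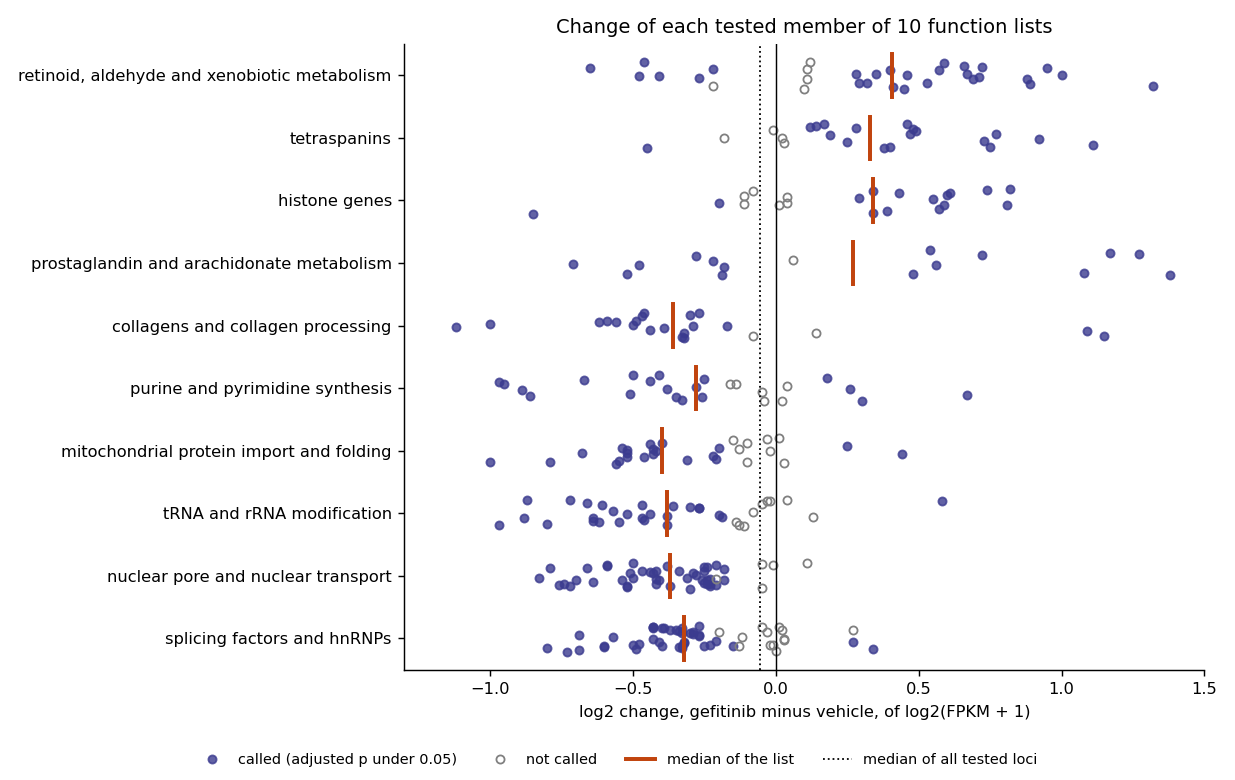
Log2 change (gefitinib minus vehicle) of each tested member of 10 function lists, with filled points for members called at an adjusted p under 0.05, a bar at each list's median and a dotted line at the median of all tested loci (-0.056). The medians lie between -0.40 (mitochondrial import) and 0.41 (retinoid, aldehyde and xenobiotic metabolism), and the prostaglandin list splits into 8 higher and 7 lower members.

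Enzymes of retinoid, aldehyde and xenobiotic metabolism were mostly higher: 21 of 32 tested members were higher and 6 lower, with a median change of 0.41 (all tested loci: 27.7% higher). ALDH3A1, an aldehyde dehydrogenase of airway epithelium and cornea, had 18.4, 20.1, 18.8 and 20.6 FPKM with gefitinib and 8.20, 7.25, 6.87 and 6.56 FPKM with vehicle (1.32 ± 0.067; limma adjusted p = 2.31e-11). The mitochondrial aldehyde dehydrogenase gene ALDH1B1 had 65.7 to 69.6 FPKM against 31.9 to 37.5 FPKM (0.95 ± 0.071). ALDH6A1 changed by 0.67 ± 0.046, and CYP1A1, the aryl hydrocarbon-induced oxidase, had 3.02 to 3.82 FPKM with gefitinib against 1.04 to 1.3 FPKM (1.0 ± 0.067). The 6 lower members, named after their values were seen, were SULT2B1, RDH11, MAOA, MAOB, GSTO1 and ALDH9A1, with changes between -0.65 and -0.22.

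Prostaglandin and arachidonate genes were divided. Of 16 tested members 8 were higher and 7 lower, with a median change of 0.27 (7 and 4 with a median of 0.51 at a minimum mean of 5 FPKM). PTGES, which makes prostaglandin E2, had 46.8, 50.5, 48.8 and 54.1 FPKM with gefitinib and 18.1, 20.2, 20.1 and 22.4 FPKM with vehicle (1.27 ± 0.072). HPGD, which breaks that prostaglandin down, had 15.7, 16.6, 16 and 14 FPKM with gefitinib, against 4.92, 5.05, 5.67 and 5.71 FPKM with vehicle (1.38 ± 0.064). Genes for both the making and the breakdown of prostaglandin E2 thus lay higher in each gefitinib library. Of all tested loci, 25.2% lay higher without overlap between the groups. PLA2G10, a secreted phospholipase, changed by 1.17 ± 0.055, and ALOX5, the first enzyme of leukotriene synthesis, had 7.94 to 8.91 FPKM against 3.10 to 3.72 FPKM with vehicle (1.08 ± 0.072). Members outside the naming rule moved less: the cyclooxygenase genes PTGS2 and PTGS1 changed by -0.28 and -0.22, another prostaglandin E synthase gene, PTGES2, by -0.52 and the receptor gene PTGER2 by -0.71. All 4 were called by limma, though PTGS1 was not after the length and GC correction (-0.08).

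Lipid handling went in both directions. AGPAT9, a glycerol-3-phosphate acyltransferase that starts triglyceride synthesis, had 2.22, 2.11, 1.77 and 2.08 FPKM with gefitinib and 10.8, 10.0, 10.5 and 9.81 FPKM with vehicle (-1.89 ± 0.077). ANGPTL4, a secreted inhibitor of lipoprotein lipase, had 0.406 to 0.552 FPKM against 3.0 to 3.31 FPKM with vehicle (-1.51 ± 0.066). The endothelial lipase gene LIPG changed by -1.07 ± 0.073 and the fatty acid binding protein gene FABP5 by -0.98 ± 0.055, while LIPH, a phospholipase that makes lysophosphatidic acid, had 23.0, 24.1, 24.4 and 20.2 FPKM with gefitinib and 10.5, 9.40, 10.0 and 10.2 FPKM with vehicle (1.12 ± 0.058). Over the list of lipoprotein uptake and lipid storage, 9 of 37 tested members were higher and 15 lower (median -0.09), close to the background; with the length and GC correction 14 were higher and 15 lower. Of 36 peroxisome genes 18 were higher and 6 lower (median 0.14). ACOX2, a peroxisomal oxidase of branched-chain and bile acid intermediates, went against the list, with 0.204, 0.283, 0.248 and 0.245 FPKM in gefitinib libraries and 2.10, 1.67, 1.89 and 1.73 FPKM in vehicle libraries (-1.19 ± 0.053). Of 28 sphingolipid genes 11 were higher and 7 lower; the sphingosine-1-phosphate lyase gene SGPL1 changed by 0.63 ± 0.050, the receptor gene S1PR2 by 0.78 ± 0.051 and the kinase gene SPHK1 by -0.63 ± 0.067.

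Collagen genes were mostly lower. Among collagens and collagen processing enzymes 18 of 22 tested members were lower and 2 higher (median -0.36). COL13A1, a transmembrane collagen, had 0.421, 0.515, 0.432 and 0.470 FPKM with gefitinib and 2.27, 2.03, 2.04 and 2.40 FPKM with vehicle (-1.12 ± 0.070), and COL8A1 changed by -1.0 ± 0.095. The 2 higher members were lysyl oxidases, which cross-link collagen and elastin: LOX had 114.4, 123.0, 115.4 and 102.3 FPKM with gefitinib, against 53.2, 48.5, 50.8 and 50.4 FPKM with vehicle (1.15 ± 0.087), and LOXL4 had 2.83 to 3.63 FPKM against 0.961 to 1.14 FPKM (1.09 ± 0.075). Their relatives LOXL1 and LOXL2, named after their values were seen, changed by -0.49 and -0.39. Of 27 proteoglycan and heparan sulfate genes 12 were lower and 5 higher (median -0.21), including the matrix proteoglycan gene VCAN (-1.32 ± 0.106), the heparan sulfate sulfotransferase gene HS3ST1 (-0.94 ± 0.069) and the syndecan gene SDC1 (-0.81 ± 0.081). With the length and GC correction 11 of the 27 were lower and 11 higher (median -0.05), and their median transcript length was 4550 bases.

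Tetraspanin genes were mostly higher. In the tetraspanin list 17 of 22 tested members were higher and 1 lower (median 0.33). The list also holds TSPO, the mitochondrial translocator protein, and 2 members of the related L6 family, which are not tetraspanins. Tetraspanins are membrane proteins that group integrins and receptors into domains. TSPAN2 had 13.9, 15.1, 13.7 and 13.7 FPKM with gefitinib and 5.87, 5.79, 6.24 and 6.18 FPKM with vehicle (1.11 ± 0.056), TSPAN31 changed by 0.92 ± 0.070, TSPAN6 by 0.77 ± 0.065 and TSPAN15 by 0.75 ± 0.091. The lower member, named after its values were seen, was TSPAN5 (-0.45). These transcripts are short, with a median of 1932 bases, and with the length and GC correction 17 were higher and 2 lower. Tight and gap junction genes were higher in 10 of 22 cases and lower in 4 (median 0.20; 6 and 4 with a median of 0.06 at a minimum mean of 5 FPKM): CLDN1 had 76.7 to 79.9 FPKM with gefitinib and 51 to 51.9 FPKM with vehicle (0.60 ± 0.052), CLDN7 changed by 0.55 ± 0.071, and the connexin gene GJA1 by 1.15 ± 0.067. Among desmosome and adherens junction genes, 6 of 19 were higher and 5 lower, with PERP, a desmosome protein, at 0.52 ± 0.042 and CTNNB1, which encodes beta-catenin, at -0.38 ± 0.064.

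Glycan genes were called in both directions, as were all tested loci (27.7% higher and 36.9% lower). Of 33 glycosyltransferase genes 14 were higher and 8 lower (median 0.06). ST6GALNAC2, which sialylates O-glycans, had 5.32, 5.79, 5.04 and 5.26 FPKM with gefitinib and 2.11, 2.09, 1.90 and 2.32 FPKM with vehicle (1.03 ± 0.056). ST6GAL1, which sialylates N-glycans, had 8.73 to 9.27 FPKM against 4.23 to 4.86 FPKM (0.90 ± 0.054), and GCNT1, which branches O-glycans, changed by 0.84 ± 0.064. MGAT5, which branches N-glycans, changed by -0.61 ± 0.050. Sialyltransferases thus included rises, but ST3GAL1, which also sialylates O-glycans and was named after its values were seen, changed by -0.98.

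Of 32 ion channel and pump genes 10 were higher and 12 lower (median -0.08), near the shares of all tested loci (27.7% higher and 36.9% lower). FXYD3, a regulator of the sodium pump, had 90.3, 95.7, 99.1 and 95.4 FPKM with gefitinib and 29.7, 40.8, 37.2 and 33.9 FPKM with vehicle (1.41 ± 0.094). The potassium channel subunit gene KCNS3 changed by 0.93 ± 0.044 and the calcium entry channel gene ORAI3 by 0.81 ± 0.061, while KCNMA1, the large-conductance potassium channel, changed by -1.10 ± 0.070. Of 34 genes for RGS proteins and G protein-coupled receptors 12 were higher and 13 lower, also near those shares. GPRC5A, an orphan receptor of lung epithelium, had 329.2, 341.5, 344.1 and 363.4 FPKM with gefitinib and 182.5, 162.5, 166.0 and 173.3 FPKM with vehicle (1.01 ± 0.058), and the adhesion receptor gene GPR110 changed by 0.67 ± 0.047. In the semaphorin, plexin and neuropilin list 3 of 20 were higher and 9 lower; with the length and GC correction 9 were higher and 9 lower, at a median transcript length of 6106 bases. Of 15 ephrin, netrin and Slit-Robo genes 7 were higher and 5 lower (7 and 4 with the length and GC correction; median -0.12 and 0.07), with the ligand genes EFNA1 at 0.74 ± 0.086 and EFNB3 at 0.65 ± 0.065 and the receptor gene EPHB6 at -0.63 ± 0.075.

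Cytokine and complement genes were more often higher than lower (all tested loci: 27.7% higher and 36.9% lower). In the cytokine list 15 of 32 tested members were higher and 8 lower (median 0.13). IL32, an intracellular and secreted cytokine that interferon can also induce, had 31.5, 29.7, 32.6 and 35.9 FPKM with gefitinib and 10.9, 12.1, 11.3 and 10.7 FPKM with vehicle (1.45 ± 0.060). Subunits of interferon receptors were higher, IFNAR2 by 0.84 ± 0.078, IL10RB by 0.84 ± 0.053 and IFNGR1 by 0.57 ± 0.048. Of 10 complement genes 6 were higher and 1 lower (median 0.26; 2 and 1 with a median of 0.03 at a minimum mean of 5 FPKM): C1RL changed by 1.01 ± 0.096, the serine protease gene C1R had 1.55 to 2.13 FPKM against 0.563 to 0.774 FPKM with vehicle (0.78 ± 0.070), and C1QBP, a mitochondrial protein despite its name, changed by -0.58 ± 0.069. Of 26 genes of coagulation and protease inhibition 9 were higher and 7 lower, to be set beside the same shares. The inhibitor genes SERPINA3 and SLPI changed by 1.05 ± 0.054 and 0.91 ± 0.052, and F3, tissue factor, had 124.1, 124.9, 125.6 and 139.1 FPKM with gefitinib and 219.6, 235.6, 240.1 and 215.6 FPKM with vehicle (-0.82 ± 0.061). The protease-activated receptor gene F2RL1 had 32.3 to 34.7 FPKM against 60.6 to 66.4 FPKM (-0.91 ± 0.051).

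Among metal-handling genes, 10 of 33 were higher and 10 lower (median 0.04), against 27.7% higher and 36.9% lower over all tested loci. STEAP4, a metalloreductase, had 32.4, 32.1, 32.8 and 28.1 FPKM with gefitinib, against 9.34, 9.5, 9.78 and 9.79 FPKM with vehicle (1.61 ± 0.054), and LCN2, which binds iron siderophores, had 33.0 to 37.5 FPKM against 16.1 to 20.1 FPKM (0.94 ± 0.067). The ferric reductase gene CYBRD1 changed by 0.59 ± 0.045 and the zinc transporter gene SLC39A11 by 0.67 ± 0.048. The S100 and annexin list had 7 of 19 higher and 4 lower. ANXA9 had 7.45 to 8.42 FPKM against 2.33 to 3.03 FPKM with vehicle (1.32 ± 0.068), S100P changed by 0.94 ± 0.089, ANXA4 by 0.73 ± 0.051 and S100A16 by -0.50 ± 0.068.

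Cytoskeletal genes were called in both directions, as were all tested loci (27.7% higher and 36.9% lower). Of 58 tested members 21 were higher and 24 lower (median -0.08). RND1, a small GTPase that opposes RhoA, had 4.88, 4.71, 4.5 and 4.07 FPKM with gefitinib and 1.20, 1.4, 1.54 and 1.47 FPKM with vehicle (1.21 ± 0.090), and tropomyosin TPM1 had 578.0 to 630.3 FPKM against 361.4 to 378.2 FPKM (0.69 ± 0.058). The LIM protein gene PDLIM1 changed by 0.63 ± 0.049 and CDC42EP2, an effector of CDC42, by -0.75 ± 0.061. Of 44 Rab and vesicle traffic genes 21 were higher and 9 lower (median 0.12). RAB11FIP1, of recycling endosomes, changed by 0.82 ± 0.071, RAB32 by 0.72 ± 0.064 and the SNARE gene VAMP8 by 0.53 ± 0.046, while RAB3B, of regulated secretion, had 3.55 to 4.26 FPKM with gefitinib and 10.3 to 10.8 FPKM with vehicle (-1.25 ± 0.080). Of 50 ubiquitin ligase and deubiquitinase genes 20 were higher and 18 lower (25 and 16 with the length and GC correction; median -0.05 and 0.12), with the ligase genes RNF144B at 1.16 ± 0.059 and TRIM16 at 0.86 ± 0.052 and the deubiquitinase gene STAMBPL1 at -0.99 ± 0.070.

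Of 21 histone genes 13 were higher and 2 lower (median 0.34), but the size rests on members of low level: at a minimum mean of 5 FPKM 6 were higher and 2 lower with a median of 0.04, and with a pseudocount of 0.1 the median was 0.53. HIST1H2BD had 14.2, 15.3, 15.4 and 15.3 FPKM with gefitinib and 8.67, 7.68, 8.17 and 7.79 FPKM with vehicle (0.82 ± 0.063), HIST2H2BE changed by 0.81 ± 0.056 and H2AFJ, a replacement variant, by 0.57 ± 0.059, and H2AFX, the variant marked at DNA breaks, changed by -0.85 ± 0.099. Messages of replication-dependent histones mostly lack a polyA tail and these libraries were made from polyA RNA, so the values cover only the messages that were captured. The histone transcripts were also short, with a median of 1507 bases, and 10 were higher and 4 lower after the length and GC correction. Of 66 chromatin enzyme genes 33 were lower and 11 higher (median -0.20). The maintenance DNA methyltransferase gene DNMT1 had 17.2, 17.2, 13.9 and 14.4 FPKM with gefitinib and 31.2, 27.4, 25.2 and 27.5 FPKM with vehicle (-0.79 ± 0.112), the acetyltransferase gene KAT2A changed by -0.72 ± 0.073, EED of the Polycomb complex by -0.46 ± 0.056 and the deacetylase gene HDAC5 by 0.67 ± 0.074. The chromatin list has a median transcript length of 6109 bases, and with the correction 28 were lower and 22 higher (median -0.05).

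In the lists of transcription factors, the clock and Notch, the shares called were below the 64.6% of all tested loci. NR1D1, a clock repressor, had 2.65, 2.84, 2.51 and 2.48 FPKM with gefitinib and 6.70, 5.89, 5.49 and 5.94 FPKM with vehicle (-0.95 ± 0.077). Of 20 clock genes 8 were lower and 1 higher; with the length and GC correction 7 were lower and 5 higher. Of 18 nuclear receptor genes 5 were higher and 5 lower (9 and 4 with the correction). The retinoic acid receptor gene RARA changed by -0.96 ± 0.077, with 2.70 to 2.97 FPKM in gefitinib libraries and 5.79 to 7.94 FPKM in vehicle libraries. In the KLF, SOX and FOX list 5 of 27 were higher and 11 lower (10 and 9 with the correction). SOX9, a factor of lung progenitors, had 7.98 to 8.74 FPKM against 15.0 to 17.2 FPKM with vehicle (-0.88 ± 0.097) and FOXA2 changed by -0.68 ± 0.073, while FOXO4 and KLF11 changed by 0.74 ± 0.073 and 0.64 ± 0.060. Of 17 Notch pathway genes 4 were higher and 6 lower (6 and 6 with the correction). The lower ones included the ligand gene JAG1 (-0.74 ± 0.088), the receptor gene NOTCH1 (-0.62 ± 0.090) and the target gene HES1 (-0.74 ± 0.093). Another ligand gene, DLL1, was higher (0.45 ± 0.071).

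Genes of PI3K inputs and central metabolism were called in both directions. Of 27 insulin, IGF and PI3K genes 5 were higher and 10 lower (median -0.09; 9 and 7 with the length and GC correction). IGFBP3, which binds insulin-like growth factors, had 157.4, 167.5, 143.3 and 139.3 FPKM with gefitinib and 82.7, 73.1, 66.8 and 66.7 FPKM with vehicle (1.06 ± 0.121). The receptor gene IGF1R had 8.34 to 9.19 FPKM against 5.08 to 5.65 FPKM (0.62 ± 0.068) and its adaptor gene IRS1 had 3.42 to 4.15 FPKM against 6.64 to 7.22 FPKM (-0.71 ± 0.082). Of 36 genes of the TCA cycle and pyruvate entry 13 were higher and 15 lower, near the background in both directions: the kinase gene PDK2 changed by 0.72 ± 0.068 and cytosolic IDH1 by 0.57 ± 0.047, while mitochondrial IDH3A changed by -0.66 ± 0.049. Of 20 serine, glycine and one-carbon genes 5 were higher and 8 lower, again near the background. The folate carrier genes SLC25A32 (-0.89 ± 0.085) and SLC19A1 (-0.77 ± 0.065) were lower. In the list of endoplasmic reticulum chaperones 13 of 32 were higher and 8 lower (median -0.02). HERPUD1 changed by 0.78 ± 0.047 and XBP1 by 0.54 ± 0.041, while SDF2L1 changed by -0.50 ± 0.056. Of 42 cilium genes 15 were higher and 9 lower, and of 19 ABC transporter genes 8 were higher and 6 lower (11 and 4 with the length and GC correction; median -0.01 and 0.16), with the drug efflux gene ABCG2 at 0.44 ± 0.055.

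Gefitinib was also given beside AZ1366, and that pair of groups shares no library with the 8 above. Of 11647 loci 7294 (62.6%) were called between the combination and AZ1366, 26.9% higher and 35.7% lower. The 258 loci that rose by 1 or more without AZ1366 were called higher beside it in 258 cases, 173 of them by 1 or more (background over all tested loci 1.71%), and the 124 that fell by 1 or more were called lower in 123 cases, 79 of them by 1 or more (background 1.65%). The difference between the gefitinib effects with and without AZ1366 was called for 212 loci (1.82%), 37 of them among the 258 and 9 among the 124, and the effect beside AZ1366 was the smaller in 31 and 6 of these. These loci were chosen for a large change without AZ1366, an estimate that also enters the difference, so the choice itself favours a smaller effect beside AZ1366 and nothing is read from these counts. The count of 212 rests on single libraries: it was 513 without AZ1366 replicate 1, between 101 and 138 without vehicle replicates 1 or 4, gefitinib replicates 1, 2 or 3, AZ1366 replicate 4 or combination replicates 1 or 3, and 134 and 139 without combination replicates 4 and 2. CCL2 had 301.4, 319.0, 300.1 and 322.0 FPKM in combination libraries and 89.1, 89.1, 93.0 and 91.8 FPKM in AZ1366 libraries, a change of 1.76 beside AZ1366 and of 2.42 without it (adjusted p of the difference 0.00115 by limma); the level with AZ1366 alone was thus above the 36.9 to 45.4 FPKM of vehicle libraries. BMF changed by 1.26 beside AZ1366 and by 1.90 without it, VTCN1 by 2.67 and 3.18, ERP27 by 1.29 and 1.90, LIPH by 0.65 and 1.12 and STEAP4 by 1.08 and 1.61. Mean FPKM with AZ1366 alone against vehicle was 14.2 and 6.04 for BMF, 6.35 and 3.82 for VTCN1 and 4.84 and 3.46 for ERP27. It was 20.5 and 10.0 for LIPH and 16.9 and 9.61 for STEAP4. With the combination against gefitinib alone, mean FPKM was 35.3 and 25.2 for BMF, 45.6 and 42.9 for VTCN1 and 13.2 and 15.7 for ERP27. It was 32.6 and 22.9 for LIPH and 36.8 and 31.4 for STEAP4. Among them, ERP27 alone was lower with both compounds than with gefitinib. The difference in these 6 genes was called under all 24 alternatives. In the other direction, NUP205 changed by -0.95 beside AZ1366 and by -0.66 without it and SLPI by 1.23 and 0.91, with differences called under 22 of 24 and 13 of 23 alternatives. For NT5E the changes were -1.93 beside AZ1366 and -2.21 without it, for PPAT -1.14 and -0.97 and for ALDH3A1 1.44 and 1.32, and none of these 3 differences was called (adjusted p of the difference 0.399, 0.418 and 0.589 by limma). In the lists, nuclear transport had 45 of 49 members lower beside AZ1366, the retinoid, aldehyde and xenobiotic list 19 of 32 higher and the tetraspanin list 15 of 22 higher, while collagens had 9 of 22 lower, against 18 of 22 without it; that difference in counts was not tested.

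**Figure D5:**
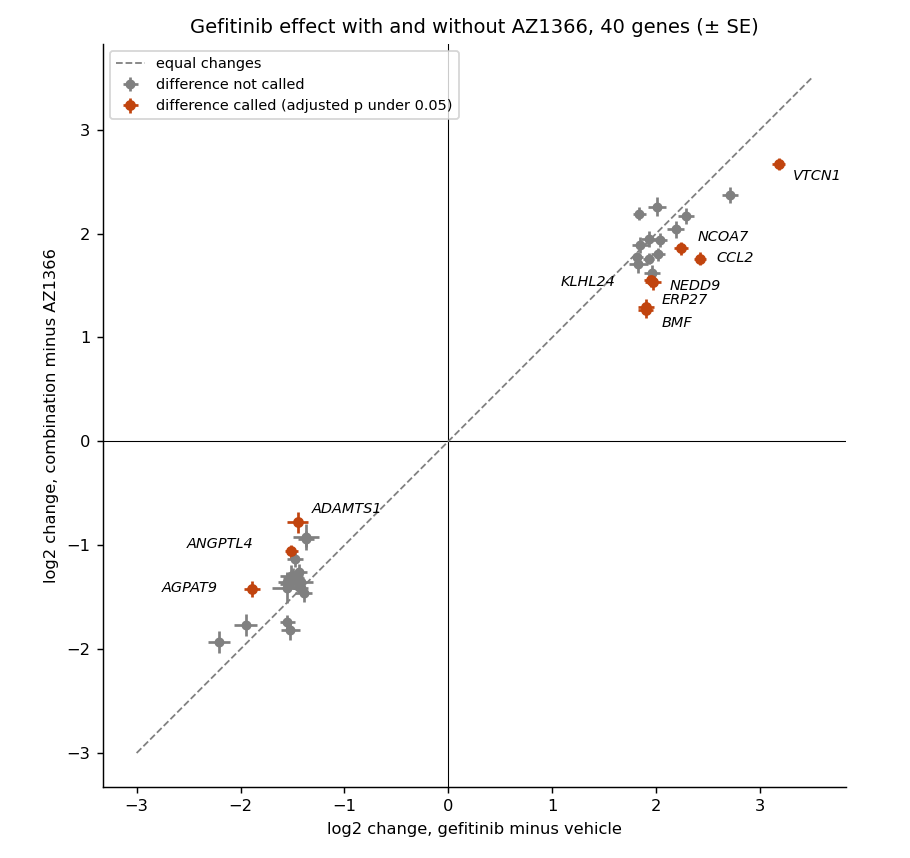
Log2 change of the 40 largest rises and falls, as combination minus AZ1366 (vertical axis) against gefitinib minus vehicle (horizontal axis), each ± SE; the dashed line marks equal changes and coloured points the genes whose difference was called. The 40 changes kept their sign beside AZ1366. Those coloured, such as CCL2 (1.76 against 2.42) and BMF (1.26 against 1.90), were smaller there. Choosing the genes by their change without AZ1366 favours that direction, so nothing is read from it.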

How the data were processed

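Polyadenylated RNA of HCC4006 cells was sequenced, and the authors deposited 1 table of FPKM values per locus for 16 libraries. The submitters' processing notes name TopHat 1.4.1, Cufflinks 1.3.0, Cuffdiff and hg19; the strand setting is not given in the sources used here. FPKM hold no read counts, so depth and counting error are unknown. Of 24293 loci, the 11647 with a mean of at least 1 FPKM over the 16 libraries were tested on log2(FPKM + 1) with limma 3.58.1 in R 4.3.3, with 4 treatment groups in 1 model (12 residual degrees of freedom), a mean-variance trend, and Benjamini-Hochberg adjustment over all tested loci at 0.05. Joined or repeated symbols were not named. In simulated data built on 11647 loci, 50 loci were changed at each size, with independent noise. Of changes of 0.25, 0.5, 1 and 2 (log2), 34%, 84%, 100% and 100% were recovered in the gefitinib comparison. There were 7 false calls, 4.22% of the calls. Far fewer loci changed there than the 64.6% called in the data, so these shares need not hold for the data.

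Named genes were the 20 largest rises and 20 largest falls outside the set-aside lists, up to 4 members of each function list, and EGFR and DUSP6; the text gives part of the 198 that this rule yields. The comparison and all gene lists were chosen with earlier results of these data known. Promoters were RefSeq sequences of GRCh38.p14, matched by symbol for 8966 of 11178 tested genes. Alternatives were another pseudocount, filter, scaling, trend and set of libraries, a replicate block, a length and GC correction, and each library left out.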

Additional observations from a re-analysis of the deposited data

Results flagged for a closer look

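One library stood apart from the other 3 of its group, by Dixon's criterion, in a small share of the groups checked, of which chance gives about 1 in 20. This was seen in 17 of 378 groups. Gefitinib replicate 4 was the highest of its group for CLDN7 (143.7 FPKM) and F3 (139.1 FPKM) and the lowest for STEAP4 (28.1 FPKM). Gefitinib replicate 1 was the lowest for HIST1H2BD (14.2 FPKM), S1PR2 (2.47 FPKM) and ST6GAL1 (8.73 FPKM), and gefitinib replicate 2 was the highest for EPCAM (262.7 FPKM) and MAOB (2.30 FPKM). Vehicle replicate 1 was the highest for COL8A1 (5.99 FPKM), LOXL1 (14.1 FPKM), NEDD9 (7.49 FPKM) and NUP188 (23.5 FPKM) and the lowest for ANXA4 (55.7 FPKM) and TIMM8B (34.3 FPKM). Vehicle replicate 4 was the lowest for NUP205 (32.7 FPKM) and VCAN (12.6 FPKM), and vehicle replicate 2 for RAB32 (40.6 FPKM).

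The gefitinib effect beside AZ1366 differed from that without it, by the interaction term of the limma model, in 20 of the genes named, and was the smaller beside AZ1366 in 17. The genes were chosen for their change without AZ1366, which also enters the difference, so the choice favours a smaller effect beside AZ1366 and that count is no result. Many of the calls depend on the processing: the difference was called in 8 of 23 alternatives for COL13A1, 11 of 23 for AGPAT9, 13 of 23 for SLPI, 9 of 24 for KCNS3 and NUP155, 12 of 24 for FXYD3, NCOA7 and NEDD9, 13 of 24 for TRIM16 and 15 of 24 for KLHL24. It was called in 21 or 22 alternatives for ADAMTS1, COL8A1, ANGPTL4 and NUP205 and in 24 of 24 for CCL2, BMF, ERP27, STEAP4, VTCN1 and LIPH. Among genes that rose, the difference (effect beside AZ1366 minus effect without it, log2) was -0.66 for CCL2, -0.64 for BMF, -0.61 for ERP27, -0.57 for FXYD3, -0.53 for STEAP4, -0.52 for VTCN1, -0.47 for LIPH, -0.44 for NEDD9, -0.40 for KLHL24, -0.38 for NCOA7, -0.31 for TRIM16 and -0.26 for KCNS3. SLPI, which also rose, differed by 0.33, with the larger effect beside AZ1366. Among genes that fell, the difference was 0.67 for ADAMTS1, 0.65 for COL8A1, 0.47 for AGPAT9, 0.45 for ANGPTL4 and 0.41 for COL13A1, and NUP155 (-0.25) and NUP205 (-0.29) fell more beside AZ1366. The cause of these differences was not tested.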

How the results depend on the processing

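The count of loci called with gefitinib stayed within 1.5 times 7521 under all alternatives, between 5295 at a minimum mean of 5 FPKM and 9109 without a filter, and between 6888 and 7353 with each library left out (3011 to 3140 higher, 3827 to 4342 lower). Changes of 1 or more numbered 406 rises and 227 falls with a pseudocount of 0.1, against 258 and 124, and 250 to 260 and 107 to 148 with a library left out. After median-ratio scaling 3855 loci were higher and 3949 lower, with 272 rises and 92 falls of 1 or more. The length and GC correction gave 263 rises and 88 falls of 1 or more. Median-ratio scaling shifted the list medians by 0.04 to 0.07, more than 1 SD between gefitinib libraries in 18 of 40 lists. For the combination against AZ1366, 6699 to 7328 loci were called with a library left out. The difference between the gefitinib effects with and without AZ1366 was called for 620 loci after quantile normalization, 419 after median-ratio scaling and 676 after the length and GC correction, against 212, and for 101 to 513 with a library left out; the cause was not tested. With the replicate number as a block 7864 loci were called for gefitinib (3361 higher and 4503 lower, 258 and 124 by 1 or more), 7613 for the combination and 227 for the difference. Libraries of the same number correlated in their deviations at 0.207, -0.19, 0.256 and 0.009. The values 0.207 and 0.256 were the highest of those gefitinib libraries with any vehicle library, while -0.19 and 0.009 were not. Whether the numbers pair the libraries is thus not settled. Those genes of the naming rule that the text gives, apart from DLL1 and SDF2L1, for which this is not given, kept direction and call under the alternatives that tested them. Of the other genes given with values, EPCAM, PTGS1 and TIMM8B lost their call and CDH1, KRT7 and NKX2-1 gained one under some alternatives, none with a change of sign. Depth is unknown, so changes of low genes cannot be set against counting error.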
